A study of Mus musculus with 2 samples.

Results

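The cells described here were gated from single-cell RNA libraries by 13 genes, with the aim of finding mature neutrophils that no longer carry specific granule transcripts. A kept barcode (500 or more genes, 1000 or more UMIs of genes and under 10% mitochondrial UMIs, where a UMI is 1 counted RNA molecule) was a member if it held a UMI of 2 or more of Cxcr2, Csf3r, Il1f9, Hdc and Steap4. It also had to hold 0 UMIs of the granule genes Ltf, Ngp, Camp and Ly6g, the basophil and mast cell genes Cpa3 and Mcpt8, the T cell gene Cd3e and the microglia gene P2ry12. The gate held 1122 of 25603 kept barcodes, 544 of 13298 in WT and 578 of 12305 in Stat4fl/flCD11cCre. The members were thus chosen by the counts of those 13 genes, whose levels are given only as a description.

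Neutrophils are made in the bone marrow, where they fill primary, specific and gelatinase granules in order and then switch off the genes for granule proteins. The chemokine receptor CXCR2 draws mature neutrophils out of the marrow, and the G-CSF receptor, encoded by Csf3r, drives their production. In inflamed tissue they can switch on cytokine, chemokine and interferon-response genes, and in experimental autoimmune encephalomyelitis (EAE), an animal model of multiple sclerosis, they are found in the inflamed spinal cord.

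Both libraries came from C57BL/6 mice with EAE induced by a MOG peptide in complete Freund's adjuvant with pertussis toxin, and tissue was taken on day 15. WT mice were set against Stat4fl/flCD11cCre mice, which carried floxed Stat4 with a Cre transgene under the CD11c promoter, which is active mainly in dendritic cells and some other myeloid cells. Mononuclear cells of the central nervous system were pooled over the mice of a genotype and sorted for MHC class II and CD11c, and 1 library per genotype was made with a 10x 3' kit. No difference between the genotypes therefore has a replicate check and no test is given. The 95% intervals stand for counting error alone.

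In WT, 13820 barcodes held 122975017 gene UMIs, in Stat4fl/flCD11cCre 12534 barcodes held 120221740, with medians of 6440.5 and 6878 per kept barcode. The libraries shared 43 barcode sequences, 42 of them kept in both, and none of these was a member in both libraries. The position of the floxed part of Stat4 is not given in the sources used here, so 3' counts of Stat4 do not check the deletion. In the gated cells Stat4 stood at 24.8 CPM (UMIs of a gene relative to the gene UMIs of the whole set) in WT and 25.4 in Stat4fl/flCD11cCre, with a log2 ratio of 0.04 (-0.44 to 0.52). All genotype ratios below are Stat4fl/flCD11cCre over WT.

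At the edge of the gate the cells changed steeply with the number of gate genes found. Barcodes that passed the exclusions with 1 gate gene (1290 in WT, 1042 in Stat4fl/flCD11cCre) held S100a9 at 265 and 333 CPM, those with 2 (246 and 202) at 5225 and 3058, and those with all 5 at 36514 and 65873. S100a9 encodes a calcium-binding alarmin that is abundant in neutrophils. The zero limit on granule genes mattered as well. Barcodes with 2 or more gate genes and exactly 1 UMI of Ltf, Ngp, Camp or Ly6g (69 and 107) held S100a9 at 29681 and 37973 CPM, against 11784 and 20841 in the members. 1 or more UMIs of these genes were found in 6.21% and 9.84% of barcodes with 2 or more T cell genes, which should lack them. Whether these came from free RNA or from doublets was not tested.

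The label fits the larger part of the gate and not the rest. Clustering of the members gave 7 subclusters, which fell into shallow and deep ones by the median gene UMIs of their cells (a division at 5000 that was chosen after the depths were seen). Subclusters 1, 3, 4 and 6 held 324 WT and 410 Stat4fl/flCD11cCre members with medians of 1871 and 2346 UMIs, and their leading genes include neutrophil genes. Subcluster 1 was led by Entpd3, Igfbp6, Mmp9 and Il1r2, subcluster 3 by Tgtp1, Il1f9, Cd274 and Gbp5, subcluster 4 by Retnlg, Stfa2l1, Cxcr1 and S100a9, and subcluster 6 by the interferon-induced genes Ifit1, Ifit3 and Rsad2. Subclusters 2, 5 and 7 held 220 and 168 members with medians of 8346 and 11542.5 UMIs. They were led by macrophage genes (subcluster 2, Arg1, Sdc4, Slc7a2 and H2-Eb1), by cell cycle and primary granule genes (subcluster 5, Pclaf, Top2a and Prtn3), and by Nav3, Slc1a3 and Sparc (subcluster 7).

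**Figure D1:**
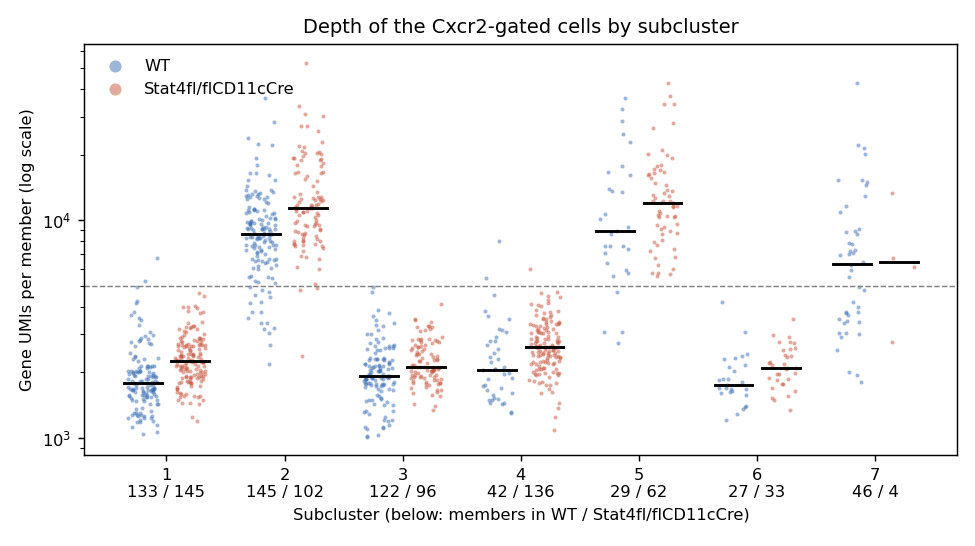
Gene UMIs of each gated cell (log axis) by subcluster and library, each point 1 cell, with a bar at the median and a dashed line at 5000. The cells of subclusters 1, 3, 4 and 6 sit near 2000 UMIs in both libraries, and those of subclusters 2, 5 and 7 lie above them, with medians between 6322 and 11977.

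The deep subclusters made up 40.4% of the WT and 29.1% of the Stat4fl/flCD11cCre members but 75.8% and 69.2% of the members' UMIs, so a sum over the whole gate is mostly theirs. 2 or more genes of a marker list of another cell type were found in 98.6% and 98.2% of the deep members and in 25.3% and 17.8% of the shallow ones. Of the deep members, 84.5% and 89.3% held 2 or more classical monocyte markers, 76.4% and 64.3% macrophage markers and 40.5% and 21.4% microglia markers. Summed over the 6 monocyte markers, the deep members held 3528 and 4294 CPM, near the 3999 and 4355 of monocytes, and the shallow members 265 and 215. Summed over the 8 macrophage markers, the deep members held 11956 and 10492 CPM, the shallow members 992 and 482, monocytes 13360 and 11349 and T cells 1690 and 745. Mrc1, a macrophage scavenger receptor, was at 0 in the shallow members of both libraries, but only 16 and 35 members of the whole gate held it. Other macrophage markers were found in shallow members, with Apoe in 116 and 123, C1qa in 66 and 59 and Arg1 in 7 and 2. The primary granule genes Elane, Mpo and Ctsg were at 0 in the shallow members of both libraries. Prtn3, another primary granule gene, was found in 17 and 31 shallow members. The 6 genes of the primary granule list summed to 31.3 and 40.8 CPM there. Lyz2, lysozyme, stood at 880 and 1158 CPM in the shallow members and at 10417 and 13546 over the whole gate. Doublets were not removed. Of the 10% of barcodes that Scrublet scored highest in each library, 13 and 12 were members and 2 and 0 were shallow members. The shallow members are the larger set in each library. Comparisons with other populations are given mainly for them, and the genotype comparison is given for the whole gate with the shallow members beside it. The subclusters were made from genes outside the gate, so levels of such genes in the shallow members follow partly from this choice.

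Known neutrophil genes outside the gate were high in the shallow members. The calprotectin genes S100a8 and S100a9 stood at 29932 and 34049 CPM in WT and at 39670 and 58182 in Stat4fl/flCD11cCre, against 289 and 98.4 in WT monocytes. Mmp9, gelatinase B, stood at 733 and 961 CPM and at 0.617 and 1.12 in monocytes. Il1r2, a decoy receptor for IL-1, stood at 1430 and 1634 CPM against 70.4 and 54.5. The 22 genes of the neutrophil identity list summed to 82187 and 121246 CPM in the shallow members, 2514 and 2654 in monocytes and 821 and 894 in T cells. Of these 22 genes, 22 were 2-fold or more above monocytes in both libraries, where 11.3% of 9988 measured genes were. In the whole gate, which no subcluster choice shaped, 20 of the 22 were, against 4.11% of 10245 genes. Members were chosen to hold 2 or more of the neutrophil genes of the gate, and monocytes to hold under 2. Higher levels of other neutrophil genes in the members thus follow partly from both gates. Among the most abundant transcripts of the gate were also Fth1, ferritin heavy chain, at 21411 and 19489 CPM, and Srgn, the proteoglycan core of granules, at 3984 and 3884.

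Of the gate genes, Csf3r stood at 1428 and 1784 CPM in the shallow members of WT and Stat4fl/flCD11cCre, and Cxcr2 at 1033 and 1183. Hdc, which makes histamine, stood at 1106 and 1646 CPM. Il1f9, which encodes the cytokine IL-36 gamma, stood at 575 and 639, and Steap4, a metalloreductase, at 246 and 349. These values are fixed in part by the gate.

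Depth was matched by thinning each cell to 1000 UMIs before shares of cells with a UMI were read. An S100a8 UMI was then found in 88.3% of the shallow WT members (84.3 to 91.6, exact Clopper-Pearson) and 93.7% (90.8 to 95.8) in Stat4fl/flCD11cCre, against 4.85% and 5.37% of T cells, which should lack it. Without thinning it was found in 90.4% and 95.6% of them. An Il1b UMI was found in 75.9% and 83.9%, against 4.89% and 4.52% of T cells, and in 83.6% and 93.7% without thinning. For the 2 proteins of the sort, the RNA was scarce in the shallow members. H2-Aa, an MHC class II chain, was found in 6.17% (3.81 to 9.37) and 3.41% (1.88 to 5.66), below the 10.5% and 7.53% of T cells, and is read as background. Itgax, which encodes CD11c, was found in 2.47% (1.07 to 4.81) and 4.63% (2.81 to 7.14), against 1.51% and 1.04% of T cells. Without thinning these shares were 12.7% and 5.37% for H2-Aa and 4.63% and 8.29% for Itgax. The median depths before thinning were 1871 and 2346 UMIs in the shallow members and 5226.5 and 6210.5 in T cells.

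The surface of the members was read by antibody tags counted in the same matrix. CD11b, an integrin chain of myeloid cells, had medians of 956 tag UMIs in WT and 1009.5 in Stat4fl/flCD11cCre in the shallow members, with quartiles of 651 to 1484 and 727.5 to 1573.5. It had medians of 454 and 422 in neutrophils with granule genes, 738 and 714 in monocytes and 33 and 23 in T cells. The shallow members thus had CD11b tag medians above both other myeloid sets although they held fewer gene UMIs. High CD11b was not particular to them, as the deep members of the gate had medians of 1287.5 and 936.5. CD172a, the signal-regulatory receptor SIRP-alpha, had medians of 226 and 301.5 in the shallow members, 278 and 380 in monocytes, 119 and 188 in the granule neutrophils and 42 and 95 in T cells. For this tag monocytes, not the shallow members, were highest of these sets. Its library difference was present in T cells too, as were those of MERTK (24.5 and 46 in the gate) and XCR1 (24 and 39).

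**Figure D2:**
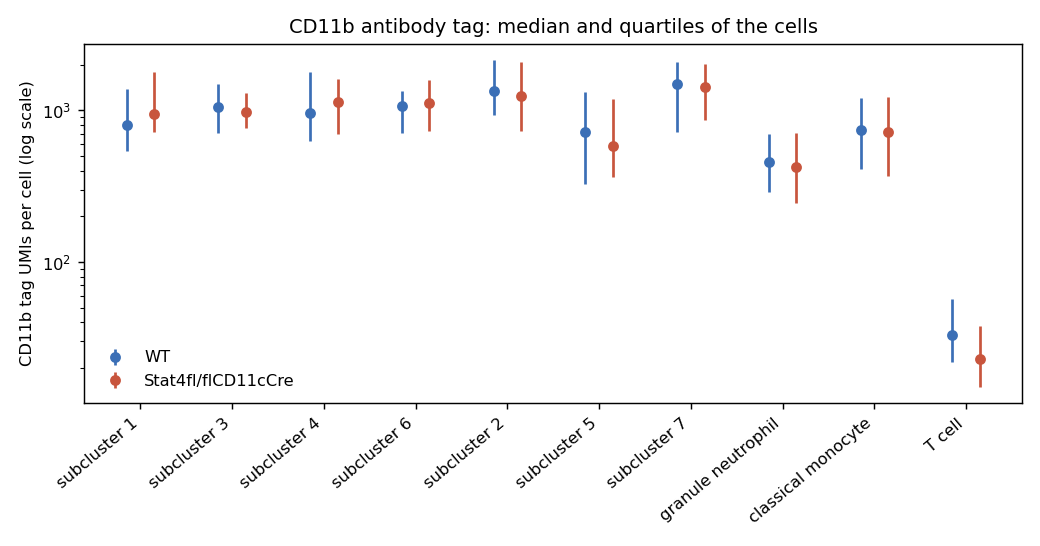
CD11b antibody tag UMIs per cell (log axis) for each subcluster of the gate and 3 other populations, with the median as a point and the quartiles as a bar, by library. The medians of subclusters 1, 3, 4 and 6 lie between 803 and 1134.5, above the 454 and 422 of the granule neutrophils and far above the 33 and 23 of T cells. Those of subclusters 2 and 7 are higher, at 1332 and 1483 in WT and 1233 and 1428.5 in Stat4fl/flCD11cCre. Those of subcluster 5 are lower, at 722 and 582.5.

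The next comparison set the members against granule neutrophils, which were gated in the same libraries by UMIs of the specific granule genes and number 189 in WT and 343 in Stat4fl/flCD11cCre. The shallow members held more RNA of NF-kB, cytokine and interferon-response genes per UMI and less of granule and cell cycle genes. Because the gates differ by 4 granule genes, the difference in other granule genes follows partly from the choice of cells. Of 4562 genes measured, 28.5% were 2-fold or more higher and 7.74% lower in both libraries, and the median log2 ratio over all of them was 0.62. The calprotectin genes alone took a large part of the granule neutrophils' UMIs (S100a8 142175 and S100a9 167491 CPM in WT), which lowers the CPM of all their other genes. Over the whole gate 32.3% of 6876 genes were higher and 3.91% lower (2219 and 269 genes, median 0.84), and with the median gene set to 0 these became 545 and 669. The ratios of the shallow members below are therefore to be read against 0.62.

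In the list of specific and gelatinase granule genes outside the gate, 13 of 15 were 2-fold or more lower in the shallow members of both libraries, with medians of -3.29 in WT and -3.21 in Stat4fl/flCD11cCre. Lcn2, the iron-sequestering lipocalin, stood at 1020 and 1370 CPM against 14208 and 15469 (log2 -3.80 and -3.50). Cd177, a neutrophil surface antigen, stood at 25.3 and 30.8 against 710 and 705 (log2 -4.81 and -4.51). Cebpe, the transcription factor of specific granule genes, stood at 14.9 and 15.9 against 282 and 251 (log2 -4.24 and -3.98). Of 13 cell cycle genes 12 were lower. The shallow members were thus low in granule genes that the gate did not use. Mmp9 differed less, at 733 and 961 CPM against 944 and 1287.

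Of the 16 NF-kB response genes, 15 were 2-fold or more higher in the shallow members of both libraries, with medians of 2.04 and 1.89. Of 22 type I interferon genes 21 were higher (2.79 and 2.85), and of 16 interferon-gamma response genes 14 were higher and 1 lower (3.19 and 3.30). Of 11 cytokine genes 8 were higher and 1 lower (2.66 and 2.89). Chemokine genes were split, with 4 of 9 higher and 1 lower and medians of 0.42 in WT and 3.02 in Stat4fl/flCD11cCre. Il1b, the precursor of IL-1 beta, stood at 4843 and 7104 CPM against 491 and 687. Ccl3, a chemokine for monocytes and lymphocytes, stood at 1144 and 854 against 56.1 and 38.9. Ccrl2, a chemerin-binding surface protein, stood at 1464 and 860 against 64.0 and 53.2 (log2 4.52 and 4.02). Cd274, which encodes PD-L1, stood at 1419 and 861 against 92.3 and 54.4 (log2 3.94 and 3.99), and Ninj1, which ruptures the membranes of dying cells, had log2 ratios of 4.25 and 4.08. These single genes stand above the overall median of 0.62.

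**Figure D3:**
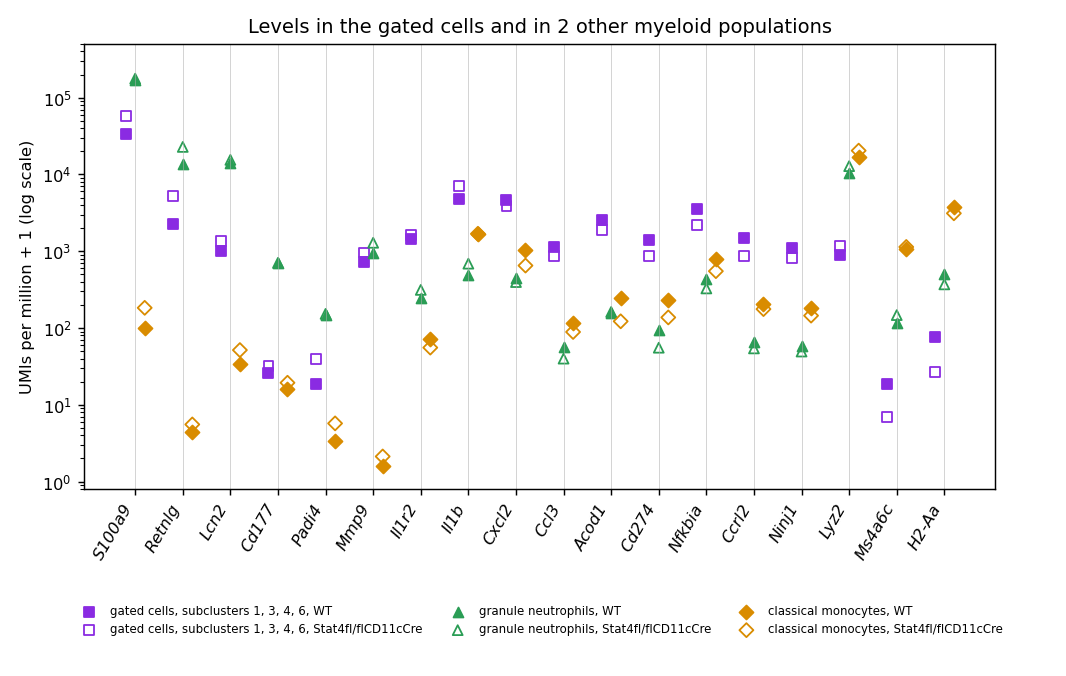
CPM plus 1 (log axis) of 18 genes in the shallow members (squares), granule neutrophils (triangles) and classical monocytes (diamonds), filled for WT and open for Stat4fl/flCD11cCre. Granule genes such as Lcn2 and Cd177 are highest in granule neutrophils, Cxcl2, Ccl3 and Cd274 are highest in the shallow members, and H2-Aa and Ms4a6c are highest in monocytes.

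Other lists had medians from near those of the NF-kB list down to below the overall median of 0.62. Of 15 MHC class I and immunoproteasome genes 11 were higher (1.80 and 1.51), and of 20 immediate early and heat shock genes 11 (1.63 and 1.34). Of 6 genes of the NADPH oxidase, the enzyme of the oxidative burst, 0 were higher and 1 lower, with medians of -0.36 and -0.22. Of 13 survival and apoptosis genes 9 were higher (1.92 and 1.85), of 15 adhesion and migration genes 9 (1.15 and 1.32), and of 10 receptors of pattern recognition and Fc 7 (1.77 and 1.34). Of 10 genes of colony-stimulating factor receptors and STAT signalling 7 were higher (1.37 and 1.22), against 28.5% over all genes.

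Against classical monocytes (2017 in WT, 1497 in Stat4fl/flCD11cCre), 29.5% of the 9988 genes were 2-fold or more lower in the shallow members of both libraries. Asprv1, a protease expressed in neutrophils, stood at 746 and 763 CPM against 0.740 and 0.531 (log2 9.98 and 10.49). Retnlg, a resistin-like neutrophil protein, had log2 ratios of 9.38 and 10.15. Of 9 MHC class II genes 9 were lower, with medians of -4.64 and -6.44. In the whole gate 0 of these 9 were, so this follows partly from leaving out the deep subclusters. H2-Aa stood at 75.9 and 25.9 CPM against 3738 and 3116 (log2 -5.62 and -6.91). Ms4a6c, a gene of monocytes and macrophages, had log2 ratios of -5.88 and -7.57. In the whole gate, where the deep members weigh most, H2-Aa stood at 1678 and 1784 CPM, and 4.11% of 10245 genes were higher and 0.82% lower than in monocytes.

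The gate held 4.09% of kept WT barcodes (3.76 to 4.44) and 4.70% of those of Stat4fl/flCD11cCre (4.33 to 5.09), a ratio of 1.15 (1.02 to 1.29). The shallow members took 2.44% and 3.33%, a ratio of 1.37 (1.18 to 1.59), and the deep members gave a ratio of 0.825 (0.671 to 1.01). Both shares depend on the other cells of the sort. Of barcodes without P2ry12 the gate took 7.53% and 11.3%, a ratio of 1.5 (1.33 to 1.69). The granule neutrophils had a ratio of 1.96. The numbers of WT and Stat4fl/flCD11cCre members were 133 and 145 in subcluster 1, 122 and 96 in subcluster 3, 42 and 136 in subcluster 4, and 27 and 33 in subcluster 6. Those of the deep subclusters were 145 and 102 in subcluster 2, 29 and 62 in subcluster 5, and 46 and 4 in subcluster 7. The genotype ratios that follow rest on this mix, and the part of the mix in them was not tested beyond the values within subclusters.

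Between the genotypes, the gated cells of Stat4fl/flCD11cCre held more RNA of several neutrophil genes, with Retnlg, S100a9 and Mmp8 among them. They held less of the interferon-gamma response genes Cxcl9, Gbp2 and Gbp5, of the cytokines Tnf and Il1a, and of the early-response gene Jun. Over the whole gate 3.6% of 8061 measured genes (50 or more UMIs over both libraries) were 1.5-fold or more higher and 6.46% lower, and the median log2 ratio was -0.02. In the shallow members 6% of 4000 genes were higher and 8.78% lower, with a median of -0.03. The shallow members also differed in median depth (1871 and 2346 UMIs), whose part in the ratios was not tested.

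Of the 22 neutrophil identity genes 5 were 1.5-fold or more higher and 1 lower in the gate, with a median of 0.24, and the same counts and a median of 0.32 held in the shallow members. In WT and Stat4fl/flCD11cCre, Retnlg stood at 691 (661 to 723) and 1710 CPM (1665 to 1755), a log2 difference of 1.31 (1.23 to 1.38), and at 2263 and 5182 CPM in the shallow members (log2 1.19). S100a9 had a log2 ratio of 0.82 (0.80 to 0.84) in the gate and 0.77 in the shallow members, and S100a8 one of 0.51 and 0.41, which was -0.02 in the shallow members without subcluster 4. Lrg1, a secreted glycoprotein of granules, went from 250 to 428 CPM (log2 0.78, 0.64 to 0.91, and 0.87 in the shallow members), and Pglyrp1, which binds bacterial peptidoglycan, from 163 to 262 (log2 0.69, 0.52 to 0.85, and 0.76). Slpi, an inhibitor of granule proteases, went from 634 to 984 CPM (log2 0.63, 0.55 to 0.72, and 0.66 in the shallow members). The deep members did not share this direction: 0 of the 22 genes were higher and 8 were lower there, with a median of -0.36, where 4.73% and 7.36% of 7319 measured genes were. Hcar2, a receptor for hydroxybutyrate and niacin, was the member below the limit in the whole gate (log2 -0.60).

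Of 14 specific and gelatinase granule genes outside the gate 5 were higher and 1 lower, with a median of 0.52, and 3 and 1 of 11 in the shallow members. Mmp8, neutrophil collagenase, went from 102 CPM (90.6 to 115) to 224 (208 to 241), a log2 ratio of 1.13 (0.93 to 1.33), and had one of 1.16 in the shallow members. Lcn2 went from 403 to 674 CPM (log2 0.74, 0.64 to 0.85), with 0.43 in the shallow members and -0.36 in those without subcluster 4. Anxa1, an inhibitor of neutrophil migration, went from 141 to 252 CPM (log2 0.84, 0.66 to 1.01, and 0.52 in the shallow members). Retnlg and Mmp9 are in both lists. In granule neutrophils 1 of 15 of these genes was higher and 0 lower, against 3.43% and 7.12% of 6099 genes, with a median of 0.12. Igfbp6, a leading gene of subcluster 1 that binds insulin-like growth factor, went from 102 to 197 CPM (log2 0.95, 0.74 to 1.15, and 0.92 in the shallow members).

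The interferon-gamma response list was lower as a group. Of its 21 measured genes 0 were higher and 11 lower in the gate (median -0.64), and 0 and 11 of 18 in the shallow members (median -0.80). Cxcl9, a chemokine for activated T cells, stood at 836 (802 to 871) and 331 CPM (311 to 351) in WT and Stat4fl/flCD11cCre, a log2 difference of -1.34 (-1.44 to -1.23), and at 856 and 255 in the shallow members (log2 -1.75). Tgtp1, an interferon-induced GTPase with a near-identical neighbour, Tgtp2, from which it may not be told apart, went from 59.4 to 16.2 CPM (log2 -1.87, -2.34 to -1.41, and -1.92 in the shallow members). Gbp5 and Gbp2, GTPases that coat intracellular microbes, had log2 ratios of -0.92 (-1.05 to -0.78) and -0.68 (-0.77 to -0.59), and of -0.90 and -0.58 in the shallow members. Cd274 went from 648 to 417 CPM (log2 -0.64, -0.74 to -0.53, and -0.72 in the shallow members), and the transcription factor Irf1 had a smaller log2 ratio of -0.42. This difference was not confined to the gate. The list median was -0.65 in granule neutrophils (9 of 17 lower), -0.63 in monocytes (0 higher and 13 of 21 lower, where 4.99% and 4.89% of genes were) and -0.03 in T cells (0 higher and 3 of 21 lower, where 2.34% and 4.78% were).

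As a description, the promoters of 2 genes of this list are shown in the RefSeq sequence of GRCm38.p6. They run from 250 bases before to 50 after the start of the gene, 5′ to 3′ on the gene's strand. Capitals mark matches to the letters TTCNNNGAA (the interferon-gamma activated GAS motif) or GAAANNGAAA and its reverse complement (the core of the ISRE motif bound by interferon regulatory factors). The Gbp5 window, chr3:142496684-142496983 on the plus strand, held 2 GAS matches and 1 ISRE match, and the Tgtp1 window, chr11:48992197-48992496 on the minus strand, held 1 of each.
Gbp5: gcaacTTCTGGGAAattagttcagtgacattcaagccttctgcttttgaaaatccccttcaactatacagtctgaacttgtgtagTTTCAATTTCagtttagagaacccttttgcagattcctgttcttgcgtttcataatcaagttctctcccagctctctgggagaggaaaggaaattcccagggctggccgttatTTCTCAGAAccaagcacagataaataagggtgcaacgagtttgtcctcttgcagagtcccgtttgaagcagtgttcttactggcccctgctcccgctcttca
Tgtp1: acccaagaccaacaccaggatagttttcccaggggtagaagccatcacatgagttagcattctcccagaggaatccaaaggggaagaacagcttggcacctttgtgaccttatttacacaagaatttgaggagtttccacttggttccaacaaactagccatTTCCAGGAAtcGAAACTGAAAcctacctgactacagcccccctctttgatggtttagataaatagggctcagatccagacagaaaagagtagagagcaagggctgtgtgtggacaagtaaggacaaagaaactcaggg
Both strands were searched, and the matches do not overlap in these windows. Of 16 list genes with an entry in the table, 9 held a GAS match, 10 an ISRE match and 6 both, against 9.55%, 3.99% and 0.54% of 27025 genes with promoter windows of this length. The list was made up of known interferon-gamma response genes, so its high shares can follow from that choice. They say nothing on the cells measured here. A match is a run of letters and no measurement of binding. Ciita, Gbp4, Iigp1 and Nos2 had no entry.

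In the gate and in its shallow members, the type I interferon and MHC class I lists had medians nearer 0 than the interferon-gamma list. Of 22 type I interferon genes 0 were higher and 1 lower in the gate (median -0.23), and 4 were lower in the shallow members (median -0.33). Over all genes 6.46% and 8.78% were lower in these sets. The type I difference was not particular to the gate. Its list median was -0.33 in granule neutrophils, -0.44 in monocytes and -0.44 in T cells. In T cells 0 were higher and 9 of 22 lower, where 2.34% and 4.78% of genes were. Isg15, a ubiquitin-like antiviral protein, had a log2 ratio of -0.50 (-0.60 to -0.39; shallow members -0.47), and Rsad2, an antiviral enzyme, one of -0.43 (-0.59 to -0.26), which was 0.18 in members with 3 or more gate genes. Of 15 MHC class I and immunoproteasome genes 5 were lower (median -0.33), and 7 in the shallow members (median -0.48). B2m, the light chain of MHC class I, went from 4248 to 3380 CPM (log2 -0.33, -0.37 to -0.29, and -0.46 in the shallow members). H2-Q7 had a log2 ratio of -0.70 (-0.85 to -0.54), although reads can be split among its near-identical neighbours. In the shallow members 4 of 4 measured MHC class II genes were lower, with a median of -1.47, farther from 0 than that of the interferon-gamma list, at levels where H2-Aa was read as background.

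**Figure D4:**
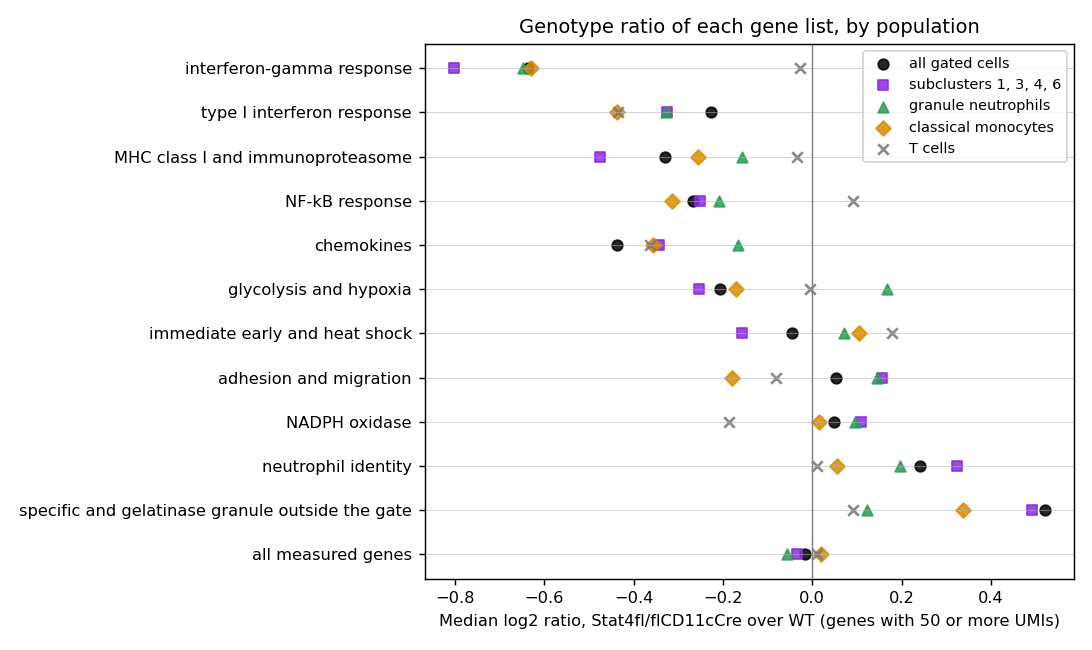
Median log2 ratio of 11 gene lists and of all measured genes (Stat4fl/flCD11cCre over WT, genes with 50 or more UMIs) in the whole gate, the shallow members (subclusters 1, 3, 4 and 6), granule neutrophils, monocytes and T cells. The interferon-gamma list lies between -0.80 and -0.63 in the 4 sets of myeloid cells and at -0.03 in T cells, while neutrophil identity is 0.32 in the shallow members and 0.01 in T cells.

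The NF-kB response and the cytokine genes did not move as one. Of 16 NF-kB response genes 0 were higher and 4 lower in the gate (median -0.27), and 6 lower in the shallow members (median -0.25). Nfkbia, the inhibitor that NF-kB itself induces, went from 1928 to 1210 CPM (log2 -0.67, -0.73 to -0.61, and -0.70 in the shallow members), and Icam1, an adhesion ligand for leukocyte integrins, from 264 to 157 (log2 -0.76, -0.92 to -0.59, and -0.86). Tnf stood at 428 (404 to 453) and 187 CPM (173 to 203) in WT and Stat4fl/flCD11cCre, a log2 difference of -1.19 (-1.34 to -1.05), and Il1a, the other IL-1 agonist, at 178 and 66.8 (log2 -1.42, -1.65 to -1.18). Their shallow members' log2 ratios were -1.11 and -1.25. After thinning, a Tnf UMI was found in 33.6% of the shallow WT members (28.5 to 39.1) and 18.0% (14.4 to 22.1) of those of Stat4fl/flCD11cCre, against 8.70% and 7.63% of T cells, and in 44.4% and 26.6% without thinning. Il1b lay in the opposite direction, at 3078 and 3825 CPM (log2 0.31, 0.27 to 0.35), and at 4843 and 7104 in the shallow members (log2 0.55). Osm, a cytokine of the IL-6 family, went from 102 to 168 CPM (log2 0.71, 0.51 to 0.93), but the ratio was -1.32 in the shallow members without subcluster 4. In monocytes Il1b was nearly level, at 1694 and 1686 CPM, and Tnf stood at 171 and 54.9.

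Of 12 chemokine genes 2 were higher and 4 lower in the gate (median -0.44), and 2 and 2 of 8 in the shallow members (median -0.34). Cxcl2, a ligand of CXCR2 itself, went from 2629 to 2013 CPM (log2 -0.39, -0.43 to -0.34, but 0.07 in members with 3 or more gate genes), and Cxcl10, a relative of CXCL9, from 1160 to 663 (log2 -0.81, -0.89 to -0.73, and -0.82 in the shallow members). Cxcl3, another CXCR2 ligand, lay in the opposite direction, at 20.5 and 63.8 CPM (log2 1.64, 1.21 to 2.09), but it was found in only 17 and 34 members. Among surface receptors, Ccrl2 had a log2 ratio of -0.59 (-0.69 to -0.49) and Ptafr, the receptor of platelet-activating factor, one of -0.60 (-0.74 to -0.46), with -0.77 and -0.73 in the shallow members. The CSF receptor and STAT signalling list had 0 of 13 genes past the limit either way and the pattern recognition list 0 of 12.

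**Figure D5:**
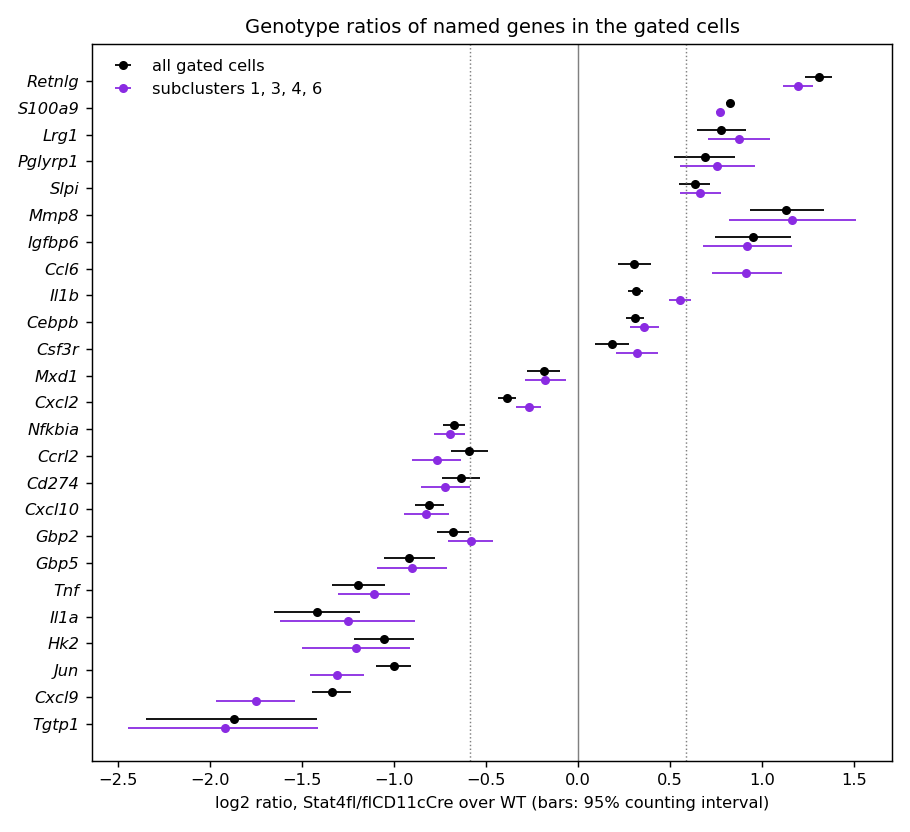
log2 ratios (Stat4fl/flCD11cCre over WT) of named genes in the whole gate and in the shallow members, with bars for the 95% counting interval and dotted lines at 1.5-fold either way. Retnlg, Mmp8 and S100a9 lie to the right of 0, and Cxcl9, Tnf, Il1a and Jun lie to the left in both sets.

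The immediate early and glycolysis lists held more genes past the limit in the shallow members than in the whole gate. By share, so did all measured genes, with 6% higher and 8.78% lower in the shallow members against 3.6% and 6.46% in the gate. Of the immediate early and heat shock genes, 0 of 21 were higher and 3 lower in the gate (median -0.05), and 1 and 5 of 20 in the shallow members (median -0.16). Jun went from 875 to 437 CPM (log2 -1.0, -1.09 to -0.90, and -1.31 in the shallow members), whereas its AP-1 partner Fos went from 1176 to 1556 (log2 0.40, 0.34 to 0.47) and Dusp1, a phosphatase that ends MAP kinase signals, from 743 to 968 (log2 0.38, 0.30 to 0.46). Hspa1a and Hspa1b, which encode heat-shock chaperones and are near-identical copies whose reads can be split, had log2 ratios of -1.14 and -1.27, and of -1.99 and -2.15 in the shallow members. Of 22 glycolysis and hypoxia genes 1 was higher and 2 lower in the gate (median -0.21), and 2 and 6 in the shallow members (median -0.25). Hk2, which traps glucose in the cell, went from 317 to 153 CPM (log2 -1.05, -1.21 to -0.89, and -1.20 in the shallow members), and Hilpda, a lipid droplet protein induced by hypoxia, from 57.2 to 27.9 (log2 -1.04, -1.42 to -0.66, and -1.54). Of 9 granulocyte transcription factors 0 were higher and 1 lower in the gate (median -0.07), and 0 and 0 of 7 in the shallow members (median 0.31). Cebpb and Cebpd among them had log2 ratios of 0.31 and 0.48 in the gate. Of the NADPH oxidase genes, 0 of 6 passed the limit in the gate (median 0.05).

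Some large ratios rested on few cells or on the deep members. Ttr, transthyretin of the choroid plexus, stood at 1264 CPM in WT and 14.4 in Stat4fl/flCD11cCre, and 66.6% of the WT UMIs lay in 1 member. The primary granule genes were lower as a list (5 of 5 genes, median -2.41), but in the shallow members Elane, Mpo and Ctsg were at 0 in both libraries. The 1 gene of this list measured in the shallow members had a log2 ratio of 0.42. Il23a, a subunit of IL-23, stood at 23.4 and 6.74 CPM (log2 -1.79, -2.56 to -1.08), found in 27 and 12 members, and the interval of the shallow members' ratio (-0.58, -1.55 to 0.39) spans 0. Arg1, arginase of macrophages, stood at 304 and 354 CPM in the gate and at 13.4 and 1.99 in the shallow members, so its level belongs to the deep ones.

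Within subclusters, some of the genotype ratios nearly vanished and others remained. Retnlg stood at 12251 and 13007 CPM in subcluster 4 (log2 0.09, -0.00 to 0.18), at 475 and 838 in subcluster 3 and at 253 and 116 in subcluster 1, so its ratio in the whole gate was not found within subcluster 4, where most of its UMIs lay and which held 42 WT and 136 Stat4fl/flCD11cCre members. S100a9 had log2 ratios of 0.37 in subcluster 1, 0.02 in subcluster 3, 0.24 in subcluster 4 and 0.14 in subcluster 6, all below the 0.77 of these members together. The neutrophil identity medians were -0.10, -0.09, 0.11 and 0.09 in the same order. In the shallow members without subcluster 4 the neutrophil identity median was 0.05. The interferon-gamma medians were -0.49, -0.18, -0.27 and -0.23, nearer 0 than the -0.80 of the shallow members together.

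Jun was lower within each of the 4 shallow subclusters, with log2 ratios of -0.93, -1.28, -1.23 and -1.22. Tnf stood at 869 and 413 CPM in subcluster 1 (log2 -1.07) and at 994 and 829 in subcluster 3 (log2 -0.26, -0.54 to 0.02). It had a log2 ratio of -0.95 (-1.91 to 0.06) in subcluster 4 and -1.92 in subcluster 6. Nfkbia had log2 ratios of -0.70, -0.29, -0.25 and -1.75. Cxcl9 was found mainly in subcluster 3, at 2185 and 1039 CPM (log2 -1.07). Subclusters were made from these same genes, so the values within them describe these cells and are no independent measure of the genotype.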

How the data were processed

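The authors deposited UMI counts for each gene and barcode, unnormalized, and per the file headers Cell Ranger 7.0.0 made them. Other names in the submitters' processing notes are mm10, bcl2fastq, STAR, Seurat and R 4.3.0. The annotation release is not given in the sources used here, nor is any removal of doublets by the authors. Each matrix holds 32285 genes and 5 antibody tags, which were left out of gene totals.

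The members, gene lists and marker lists were chosen with earlier results of these data known. Of the listed names 3 (Mx1, Mx2 and Clec7a) were not used here. The sets compared with the members had UMIs of 2 or more of Ltf, Ngp, Camp and Ly6g (granule neutrophils), of Ly6c2, Ccr2, F13a1 and Vcan (monocytes) or of Cd3e, Cd3d, Cd3g and Trac (T cells), with the members' excluded genes at 0 except those of the set's own type. Monocytes also held under 2 of the members' gate genes. Counts were summed per library and set and scaled to CPM. Levels carry exact Poisson, ratios exact conditional binomial and shares exact Clopper-Pearson intervals, at 95%, for counting error only. Genes had 50 or more UMIs over both sets. Each ratio was called past 1.5-fold between genotypes, or 2-fold in both libraries between populations, without a test. Members were clustered in scanpy 1.11.5 (1000 variable genes, 15 components, 15 neighbours, Leiden resolution 0.5). Subcluster ratios used genes with 20 or more UMIs. The genes named are the gate genes, the abundant ones, those of each list and comparison with the interval bound farthest from a ratio of 1, and leading genes of subclusters; the text gives a part of these, chosen after their values were seen. Hcar2 was named because it was the single gene of its kind.

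The ratio step was tested on simulated counts of 8061 genes for the genotype comparison. It found the right direction in 77.3% of genes changed 1.5-fold, in 91.7% at 2-fold and in 100% at 4-fold, and the interval covered 1 in 95.5% of unchanged genes. This checks the calculation and says nothing on variation between mice or libraries, or on the mix of subclusters. Alternatives changed the cell filter, gate, scaling, weighting, fold and minimum count.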

Additional observations from a re-analysis of the deposited data

How the results depend on the processing

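No paired analysis was possible because each genotype has 1 library. Over all alternatives, 516 values of named genes' genotype ratios were recomputed and 6 changed direction from a log2 ratio beyond 0.1, as did 9 of 291 list medians. The cause was not tested.

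The ratio of the gate's share, 1.15, was 1.36 with 3 or more gate genes, 1.5 without members that carry markers of other cells, 1.37 without the deep subclusters and 1.5 of barcodes without P2ry12. The 290 higher and 521 lower genes between genotypes became 462 and 973 with each cell weighted equally, 573 and 980 with 20 or more UMIs, 153 and 288 with 100 or more, and 55 and 114 at 2-fold. They became 414 and 791 with 3 or more gate genes, 204 and 314 without members with other markers, and 205 and 206 without the deep subclusters and subcluster 4. All of these but equal weights and 2-fold also change how many genes are measured.

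Against granule neutrophils, the 2219 higher genes of the whole gate became 1472 with 3 or more gate genes, 1302 without the deep subclusters and 1360 also without subcluster 4. Without members with other markers 1092 were higher and 135 lower, and with the median of gene ratios as the scale 545 and 669. Against monocytes, the 421 higher and 84 lower genes became 262 and 45 with the stricter cell filter, 1124 and 2950 without the deep subclusters, and 1170 and 2642 also without subcluster 4. They became 608 and 402 with 3 or more gate genes, 609 and 435 with Csf3r and 581 and 303 with Hdc left out of the gate, and 570 and 173 with 20 or more UMIs. The setting without other markers was not run for monocytes. Resolution 1 gave 13 subclusters in place of 7. The CD11b log2 ratio of medians was 0.0310 per 1000 gene UMIs in the whole gate. For the shallow members these scaled medians were 484 in WT and 452 in Stat4fl/flCD11cCre. That is the opposite order to their unscaled medians of 956 and 1009.5.

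With 3 or more gate genes, the directions reversed for Rsad2 (0.18), Cxcl2 (0.0673), and the list medians of lipid mediators (0.0858), cell cycle (-2.82) and regulatory genes (0.11). Without Csf3r in the gate they reversed for Rsad2 (0.0693), lipid mediators (0.0861), cell cycle (-2.06) and regulatory genes (0.00281). Lipid mediators also reversed without other markers (0.0388) and without the deep subclusters (0.0587), and cell cycle with equal weights (-0.0251). Without the deep subclusters and subcluster 4, S100a8 (-0.0204), Lcn2 (-0.36) and Osm (-1.32) reversed. The alternatives that leave out subclusters were chosen after seeing the data.

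Depth limits the shallow members most: their sets hold 671530 and 1005273 UMIs, and genes under 50 UMIs were not compared. With 1 library per genotype, mouse-to-mouse and library variation cannot be told apart from genotype.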
